A study of Petromyzon marinus with 21 samples.

Results

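Transcripts for a secreted signal and for 3 proteins annotated as adhesion, neurite outgrowth or leucine-rich repeat proteins were followed through early development of the sea lamprey (Petromyzon marinus), a jawless vertebrate, and in its adult testes. They are the probes whose annotation in the deposited raw count table names WNT-5a (comp249676), protocadherin Fat 3 (comp284391, FAT3 hereafter), neurofascin (comp293325) or a leucine-rich repeat-containing protein (comp292779). These make 4 of the 43 target probes, of which 19 carry an annotation. The choice rests on the annotation, not on measured values. RNA was counted on the NanoString nCounter, on which a barcoded probe is hybridised to each chosen transcript and the barcodes are counted without amplification. The groups were adult testes in 3 technical lanes of 1 sample, and whole embryos of 6 ages between 1 day and 5 days after fertilization, named D1, D2, D2.5, D3, D4 or D5 for the day, with 3 biological samples at each age. The embryos were kept in diluted Holfretter's solution throughout, and no genotype, strain or treatment is given in the sources used here. How many embryos or parents each sample held is not given there either.

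WNT-5a is a secreted glycoprotein that binds Frizzled and ROR receptors and acts mostly without beta-catenin. In frog, zebrafish and mouse embryos it takes part in the cell movements that lengthen the body axis. Fat cadherins are very large transmembrane proteins with many cadherin repeats, and in the mouse retina Fat3 shapes the dendrites of amacrine cells. Neurofascin belongs to the L1 family of immunoglobulin-type adhesion molecules and in mammals gathers at nodes of Ranvier and at the axon initial segment. A leucine-rich repeat is a structural motif through which many unrelated proteins bind partners. The file does not say which member of that broad class comp292779 detects, so it is given no role here, and its annotation also mentions adipocyte differentiation.

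Lanes differed strongly in what they held. Summed over the 43 target probes, the testes lanes held 450972 to 473907 counts, against 504 to 15415 in the embryo lanes. Each lane's background was set at the mean + 2 SD of its 8 negative controls, at 127 to 136 raw counts in testes and 7.78 to 23.2 in embryos. Embryo levels are given as scaled counts, which are raw counts divided by a lane factor from the reference probes EF1A_A and HCFC-1. Of the 6 reference probes, these 2 were the ones above background in every embryo lane. RPS9, not used since under background in D1 replicate 2, had 20.4 to 29.9 scaled counts at D1 and 3085 to 4123 at D5. Piwi-1 and Piwi-2, not used either, ran the other way from D1 to D3, and neither was above background in any D3 lane. How the rises from D1 depend on the scaling is given below. All 4 probes were tested, being above background in at least 3 embryo lanes, as 38 of the 43 target probes were. Column names place D1 to D3 in a first instrument run, D4 and D5 in the next and testes in the last, so stage and run cannot be told apart in comparisons across runs. Of the 6 lanes at D4 and D5, 4 carry no replicate number and are called lanes a and b of their stage, with no order. In the column names D4 lane a and both D5 lanes a and b share a tag whose meaning is not given. Whether lanes a and b of a stage are independent samples cannot be told from these names. They are counted here as separate samples. Counts of lanes a and b lay closer to each other (chi-square per degree of freedom 2.90 at D4 and 2.73 at D5) than to replicate 1 (22.8 to 79.2). Between lanes of 1 stage from D1 to D3 it was 3.35 to 96.6.

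The 4 transcripts shared one order of stage means on this scaling. Their stage means were lowest at D1, then higher at D2, D2.5, D5 and D4 in that order, and highest at D3. That order was not particular to them, since 23 of the 38 tested probes had it. Replicate 3 was the highest lane for each of the 4 at D2.5 and at D3. All 4 probes had their highest embryo level in D3 replicate 3, as 36 of the 38 tested probes did. Without that lane, and with all D4 lanes kept, the D3 mean of WNT-5a lay below its D4 mean (30.4 against 52.3). So did those of neurofascin (36.1 against 56.9) and the leucine-rich repeat probe (14.2 against 34.1), while FAT3 stayed above (24.2 against 21.3). With the highest lane left out of both stages, D3 lay above D4 for WNT-5a (30.4 against 25.2), neurofascin (36.1 against 27.2) and FAT3 (24.2 against 15.8). The leucine-rich repeat probe then had 14.2 at D3 and 14.6 at D4. Whole embryos were measured, so fewer cells that express a gene and less RNA per cell cannot be told apart.

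**Figure D1:**
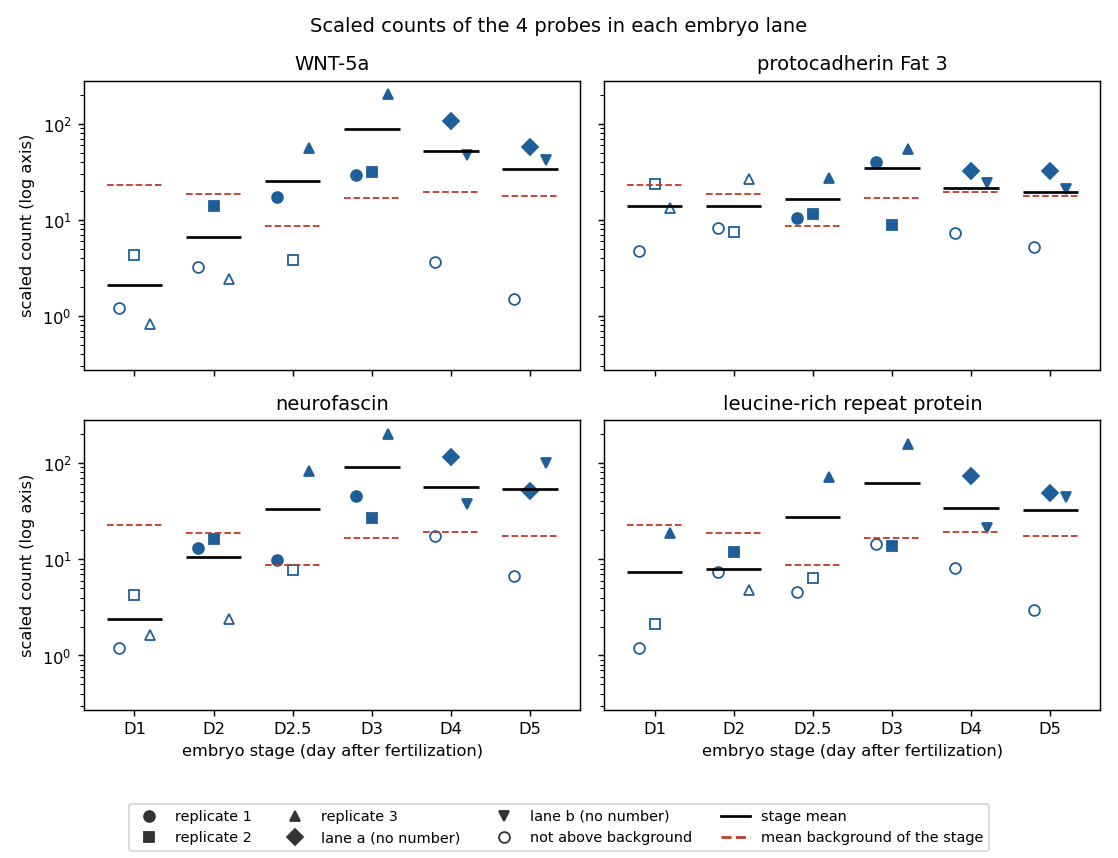
Scaled count (log axis) of each of the 4 probes in every embryo lane, by stage in days after fertilization. Filled symbols are lanes above their own background, open symbols lanes that are not, black bars stage means over 3 lanes, and dashed red bars the mean background of the stage. WNT-5a and neurofascin lay far under the background at D1, and their D3 means were 87.8 and 90.5 scaled counts, with D3 replicate 3 highest in all 4 panels.

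WNT-5a was at the floor of the assay in the youngest embryos and above background in every D3 embryo sample. In D3 replicate 1 it had 14 raw counts (95% Poisson interval 7.65 to 23.5) against a background of 11.4. Its scaled counts in replicates 1, 2 and 3 were 1.20, 4.27 and 0.824 at D1, 3.27, 14.0 and 2.40 at D2, 17.3, 3.86 and 55.3 at D2.5, and 29.1, 31.6 and 203 at D3. In replicate 1, lane a and lane b they were 3.64, 106.5 and 46.8 at D4, and 1.49, 56.8 and 42.3 at D5. The D1 values stand for raw counts of 1, 2 and 1. No D1 lane was above background, nor were 2 of the 3 D2 lanes. Above it were 2 of 3 lanes at each of D2.5, D4 and D5, and all 3 D3 lanes. All 3 D3 lanes lay above all 3 D1 lanes, whereas the D5 lanes overlapped those of D1 since D5 replicate 1 had 1.49. The D1 lanes averaged 2.10 ± 1.89, the D2 lanes 6.56 ± 6.47, the D2.5 lanes 25.5 ± 26.7, the D3 lanes 87.8 ± 99.5, the D4 lanes 52.3 ± 51.7 and the D5 lanes 33.5 ± 28.7 (SD, n = 3 each).

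Neurofascin followed a similar course and was the only one of the 4 whose D5 lanes all lay above its D1 lanes. In D5 replicate 1 it had 9 raw counts against a background of 19.9, and 1, 2 and 2 in the D1 lanes. It was thus under background on both sides of that separation. Its scaled counts in replicates 1, 2 and 3 were 1.20, 4.27 and 1.65 at D1, 13.1, 16.2 and 2.40 at D2, 9.80, 7.73 and 83.3 at D2.5, and 45.7, 26.5 and 199 at D3. In replicate 1, lane a and lane b they were 17.3, 116 and 37.2 at D4, and 6.72, 51.9 and 101 at D5. D2.5 replicate 3 stood 8.50-fold above the next D2.5 lane and D3 replicate 3 4.36-fold above the next D3 lane. The D1 lanes averaged 2.37 ± 1.66, the D2 lanes 10.6 ± 7.22, the D2.5 lanes 33.6 ± 43.1, the D3 lanes 90.5 ± 94.6, the D4 lanes 56.9 ± 52.3 and the D5 lanes 53.3 ± 47.3 (SD, n = 3 each). No D1 lane was above background, and 2 of 3 lanes were at each of D2, D2.5, D4 and D5, and all 3 at D3.

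The leucine-rich repeat probe had its D1 signal in a single embryo sample. Its scaled counts in replicates 1, 2 and 3 were 1.20, 2.14 and 19.0 at D1, 7.36, 11.9 and 4.81 at D2, 4.52, 6.44 and 71.1 at D2.5, and 14.6, 13.9 and 156 at D3. In replicate 1, lane a and lane b they were 8.19, 73.2 and 21 at D4, and 2.99, 49.4 and 44.5 at D5. The 3 D1 lanes held 1, 1 and 23 raw counts, and D1 replicate 3 was the only D1 lane in which any of the 4 probes was above background (95% Poisson interval of the 23 counts 14.6 to 34.5, against a background of 17.8). The D3 mean of 61.6 ± 82.1 rested on replicate 3, without which the mean of the other two lanes was 14.2. The D1 lanes averaged 7.43 ± 9.99, the D2 lanes 8.01 ± 3.57, the D2.5 lanes 27.4 ± 37.9, the D4 lanes 34.1 ± 34.4 and the D5 lanes 32.3 ± 25.5 (SD, n = 3 each). D3 lanes and D1 lanes overlapped.

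FAT3 had the flattest course of the 4. Its scaled counts in replicates 1, 2 and 3 were 4.79, 23.5 and 13.2 at D1, 8.18, 7.55 and 26.4 at D2, 10.6, 11.6 and 27.3 at D2.5, and 39.5, 8.85 and 55.2 at D3. In replicate 1, lane a and lane b they were 7.28, 32.3 and 24.2 at D4, and 5.23, 32.1 and 21.2 at D5. No D1 or D2 lane was above background, all 3 lanes were at D2.5 and at D3, and 2 of 3 were at D4 and at D5. D1 replicate 2 and D2 replicate 3, the highest lanes of their stages, held 11 raw counts each and had the lowest lane factors of all embryo lanes, 0.468 and 0.416. The D1 lanes averaged 13.8 ± 9.36, the D2 lanes 14.1 ± 10.7, the D2.5 lanes 16.5 ± 9.38, the D3 lanes 34.5 ± 23.6, the D4 lanes 21.3 ± 12.8 and the D5 lanes 19.5 ± 13.5 (SD, n = 3 each). The lanes of every stage overlapped those of every other.

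Over the 18 embryo lanes, WNT-5a was above background in 10, FAT3 in 10, neurofascin in 11 and the leucine-rich repeat probe in 9, against a median of 11 for the tested probes. All 4 were above background together in D2.5 replicate 3, D3 replicates 2 and 3, and lanes a and b of both D4 and D5. None was in D4 replicate 1 or D5 replicate 1, the only numbered lanes of those stages, nor in D1 replicates 1 and 2 or D2 replicate 3. The panel divided the same lanes. In the lanes with all 4, between 36 and 40 target probes were above background, and in the lanes with none of them between 3 and 11. The shared detection was thus not particular to the 4. In the order of stage means, every pair of neighbouring stages overlapped for each probe, and only for neurofascin at D2 over D1 was the gap larger than the SD of both stages.

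Differences between stages were tested on the raw counts with edgeR's quasi-likelihood test, with Benjamini-Hochberg adjustment over the 38 tested probes and a threshold of 0.05. Over all 6 stages, 2 of the 4 passed, WNT-5a (adjusted p = 0.0143) and neurofascin (adjusted p = 0.0219), where 52.6% of the tested probes did. The leucine-rich repeat probe (adjusted p = 0.241) and FAT3 (adjusted p = 0.929) did not. Both calls ended without any one of the 3 D1 lanes: the edgeR adjusted p was 0.0904, 0.0548 and 0.111 for WNT-5a and 0.131, 0.0711 and 0.124 for neurofascin without D1 replicate 1, 2 and 3. Within the first run alone, over D1 to D3, edgeR gave an adjusted p of 0.0033 for WNT-5a, 0.0046 for neurofascin, 0.0702 for the leucine-rich repeat probe and 0.704 for FAT3. In all 6 stages the call of neurofascin also ended without D2 replicate 3 (0.0526), and without D2.5 replicate 3 the leucine-rich repeat probe passed (0.0401).

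Between D3 and D1, both read in the first run, 3 of the 4 transcripts rose and none fell, where 76.3% of the tested probes rose and 2.63% fell. The edgeR log2 fold change was 5.47 for WNT-5a (SE 1.59, adjusted p = 0.0017), 5.29 for neurofascin (SE 1.56, adjusted p = 0.0017), 2.97 for the leucine-rich repeat probe (SE 1.38, adjusted p = 0.0409) and 1.33 for FAT3 (SE 1.25, adjusted p = 0.310). The median of the 4 was 4.13, beside 4.36 over all tested probes. These values use the D1 counts as they are, with no floor. WNT-5a, neurofascin and FAT3 were below background in every D1 lane. A lower bound of their folds was therefore set from that background, 22.9 scaled counts on average. Against it the D3 mean was at least 3.84-fold higher for WNT-5a, 3.96-fold for neurofascin and 1.51-fold for FAT3. Without D3 replicate 3 these bounds were 1.33, 1.58 and 1.06. Lanes of D3 lay wholly above those of D1 for 2 of the 4, where 73.7% of the tested probes did so.

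The rises of WNT-5a and neurofascin from D1 stayed past the threshold without any 1 of the 18 lanes in turn, with log2 fold changes of 3.96 to 6.30 and 3.97 to 5.86. That of the leucine-rich repeat probe did not. Without D3 replicate 3 its log2 fold change was 0.85 (edgeR adjusted p = 0.593), without D1 replicate 3 it was 5.16 (0.0208), and its call also ended without D1 replicate 1 (0.167), D1 replicate 2 (0.133) or D2 replicate 3 (0.0502). It ended too after subtraction of the mean negative control (0.159 in edgeR) and in limma with a pseudocount of 1 (0.0702) or 10 (0.129) or on the deposited values (0.130).

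Between D5 and D1, 2 of the 4 rose and none fell, where 63.2% of the tested probes rose and 2.63% fell, and these stages lie in different runs. The edgeR log2 fold change was 4.52 for neurofascin (SE 1.52, adjusted p = 0.0079), 4.08 for WNT-5a (SE 1.52, adjusted p = 0.0158), 2.03 for the leucine-rich repeat probe (SE 1.34, adjusted p = 0.167) and 0.51 for FAT3 (SE 1.24, adjusted p = 0.722). Against the D1 background the D5 mean was at least 2.33-fold higher for neurofascin and at least 1.47-fold higher for WNT-5a. The D5 mean of FAT3, 19.5, was under that background. For neurofascin the bound was 1.28 without its highest lane, D5 lane b. Without D5 lane a the D5 mean of WNT-5a, 21.9, was under that background. Lanes of D5 lay wholly above those of D1 for 1 of the 4, neurofascin, where 52.6% of the tested probes did so. The lowest D5 lane of neurofascin, replicate 1, was itself under background. Both rises ended without D1 replicate 1 (edgeR adjusted p = 0.0598 for neurofascin and 0.0778 for WNT-5a) or D1 replicate 3 (0.0617 and 0.0829), and that of WNT-5a also without D5 lane a (0.0658). In the 14 lanes with a replicate number, which hold 1 D5 lane, the log2 fold change was 1.57 for neurofascin (edgeR adjusted p = 0.802) and −0.29 for WNT-5a (0.948).

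No step between successive stages passed for any of the 4 probes, where 0% of the tested probes were called in each step, and none of the 4 had an unadjusted p under 0.05 in edgeR. The log2 fold changes of all 4 were positive for D2 vs D1, D2.5 vs D2 and D3 vs D2.5, and negative for D4 vs D3 and D5 vs D4. Of the 38 tested probes, 34, 35 and 36 were positive in the first 3 of these steps, and 0 and 12 in the last 2. From D1 the first step was 2.24 (SE 1.44) for neurofascin and 1.79 (SE 1.47) for WNT-5a, whereas FAT3 and the leucine-rich repeat probe had 0.0032 (SE 1.33) and 0.063 (SE 1.34). For D4 vs D3 the 4 lay between −0.85 and −0.67, and for D5 vs D4 between −0.65 and −0.086, with a lowest adjusted p of 0.801 and 0.982 in edgeR.

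The step to D3 from D2.5 depended on pairing. Without a block, the log2 fold change was 1.78 (SE 1.28) for WNT-5a, 1.43 (SE 1.27) for neurofascin, 1.17 (SE 1.28) for the leucine-rich repeat probe and 1.05 (SE 1.23) for FAT3, with a lowest adjusted p of 0.409 in edgeR. Among the stages of the first run, D2.5 and D3 were the only pair whose same-numbered lanes deviated together, and replicate 3 was the highest of both. Fitted on these 6 lanes alone with the replicate number as a block, all 4 were higher at D3, where 92.1% of the tested probes were. The blocked log2 fold change was 1.82 for WNT-5a (SE 0.39, edgeR adjusted p = 3.0e-05), 1.62 for neurofascin (SE 0.41, adjusted p = 0.00024), 1.21 for the leucine-rich repeat probe (SE 0.34, adjusted p = 0.00092) and 0.87 for FAT3 (SE 0.33, adjusted p = 0.0113). This fit was added after the data had been seen. Its block was chosen from the values of these same lanes, with the 4 probes among those used. Its p-values are therefore no independent evidence of a rise. With positive controls only, the sum of the target probes, TMM or DESeq2's size factors the blocked fit called none of the 4.

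How the lanes were scaled divided the 4 probes. TMM and DESeq2's size factors are computed from the tested probes, so a change that most of the panel shares is removed by construction: the median log2 fold change of D3 vs D1 was −0.17 and −0.048 under them, against 4.36 with EF1A_A and HCFC-1. Under these scalings WNT-5a remained positive for D3 vs D1, at 1.05 and 1.14 (edgeR adjusted p = 0.270 and 0.169), and so did neurofascin, at 0.81 and 0.90 (0.472 and 0.296). FAT3 was lower at D3, with −2.87 and −2.81 (0.0118 and 0.0123), and so was the leucine-rich repeat probe, with −2.30 and −2.27 (0.0127 and 0.0129), where 36.8% of the tested probes were called lower under either and 15.8% and 18.4% higher. FAT3 was under background in all D1 lanes and the leucine-rich repeat probe in 2 of 3, so these falls are measured from counts at the floor. Under EF1A_A alone, HCFC-1 alone and positive controls only, the same 3 probes rose for D3 vs D1 as with both references. Under the sum of the target probes WNT-5a (3.38) and neurofascin (3.21) rose, and the leucine-rich repeat probe had 0.43 (0.603).

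**Figure D2:**
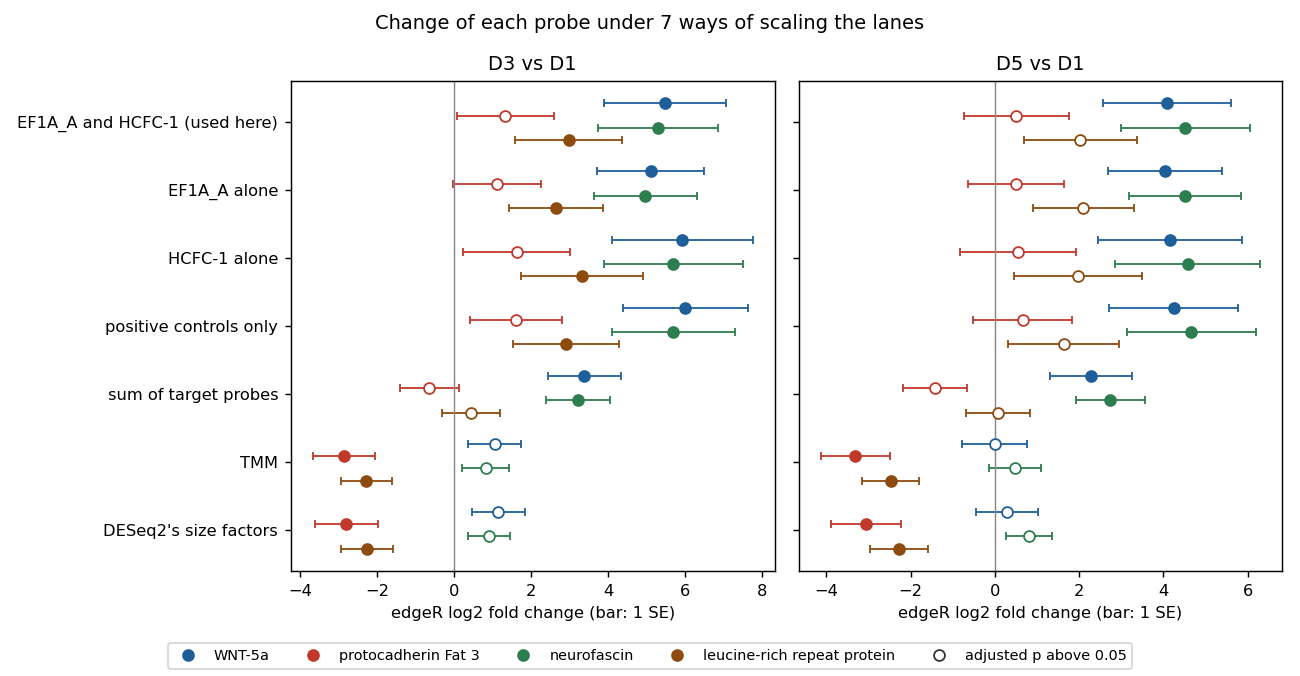
edgeR log2 fold change of the 4 probes for D3 vs D1 (left) and D5 vs D1 (right) under 7 ways of scaling the lanes, with bars of 1 SE. Filled points have an adjusted p of at most 0.05. WNT-5a and neurofascin were at or above 3.21 for D3 vs D1 in the upper 5 scalings and between 0.81 and 1.14 with TMM and DESeq2's size factors, where FAT3 and the leucine-rich repeat probe were negative.

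Set against the other 37 tested probes of its own lane, each transcript had a course that does not depend on the lane factor except through the pseudocount of 1. The difference of log2(scaled count + 1) from the mean of those probes was −1.39 ± 0.64 for WNT-5a in D1 lanes, −1.38 ± 0.30 in D2 lanes, −0.66 ± 0.67 in D2.5 lanes, −0.23 ± 0.25 in D3 lanes, −0.79 ± 0.93 in D4 lanes and −1.34 ± 0.80 in D5 lanes (SD, n = 3 each). That of neurofascin was −1.20 ± 0.54 at D1, −0.11 ± 0.25 at D3 and −0.40 ± 0.52 at D5. The leucine-rich repeat probe stayed between −1.15 and −0.46 in all stage means, with an SD of 1.92 at D1. Its highest mean was at D1. FAT3 also had its highest mean at D1, at 0.86 ± 1.01, and lay at −1.31 ± 1.13 at D3 and −1.49 ± 0.61 at D5. The panel itself was near the floor at D1. Only 6, 3 and 7 target probes were above background in D1 replicates 1, 2 and 3, against 25, 37 and 38 in those of D3. WNT-5a, neurofascin and FAT3 were under background in every D1 lane, so their D1 differences mostly compare counts at the floor.

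A fit of these centred lanes with limma, added after the data had been seen, called none of the 4 over the 6 stages, where 36.8% of the tested probes were called. For D3 vs D1 it gave a fall of FAT3 (log2 difference −2.12, adjusted p = 0.0275) and a rise of neurofascin (1.07, adjusted p = 0.0353), where 23.7% of the tested probes fell and 34.2% rose. WNT-5a (1.12, limma adjusted p = 0.0560) and the leucine-rich repeat probe (−0.59, 0.392) did not pass. For D5 vs D1 FAT3 was lower again (−2.29, limma adjusted p = 0.0204), where 15.8% of the tested probes were, and none of the other members passed, where 28.9% were higher. The D1 values of FAT3 in this fit are raw counts of 4, 11 and 16 against backgrounds of 13.2, 17.9 and 17.8. Most of the other tested probes that they are set against were under background in those lanes too.

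**Figure D3:**
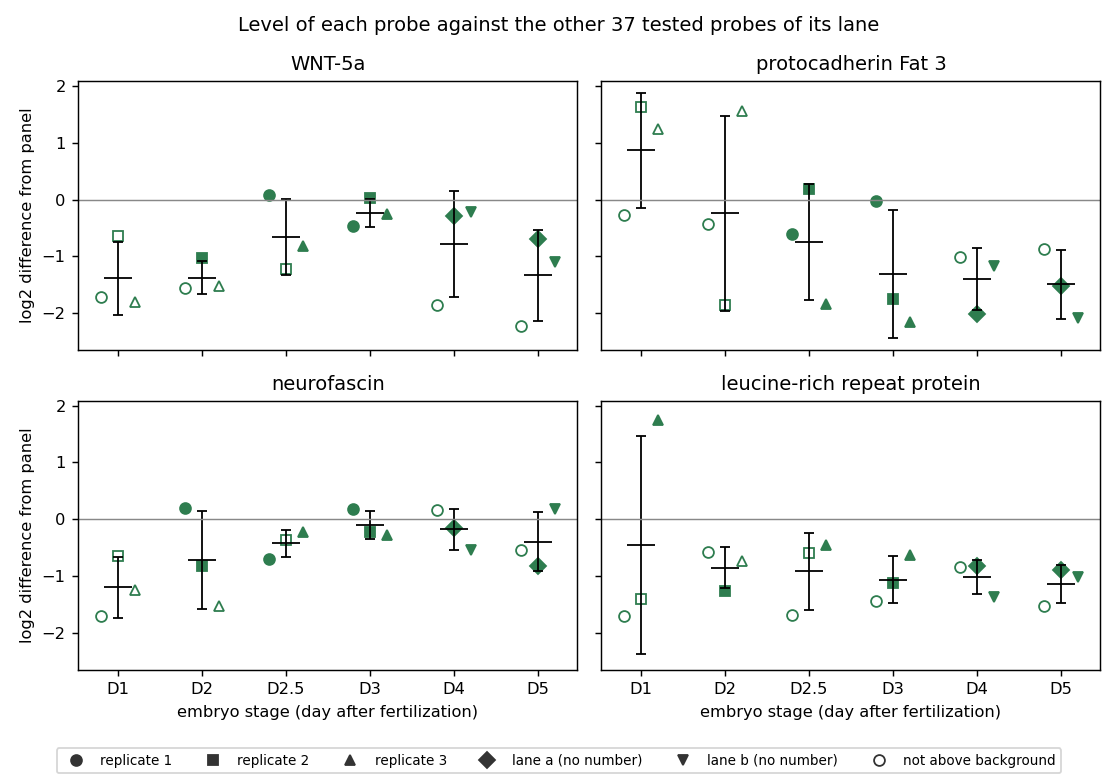
Difference of each probe from the mean of the other 37 tested probes of its lane, in log2 units, by stage in days after fertilization, with stage means and SD in black (3 lanes each). FAT3 had its highest stage mean, 0.86, at D1 and lay at −1.31 at D3, whereas WNT-5a lay at −1.39 at D1 and −0.23 at D3; open symbols mark lanes not above background.

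The 4 were also compared with one another through the ratio of 2 probes within a lane, which the lane factor hardly moves. A permutation test of the 6 pairs (100000 resamples, upper tail of the one-way F over the stages, adjusted over the 6) passed for 0 of them. The lowest p was that of FAT3 over neurofascin (p = 0.0435, adjusted p = 0.261, permutation test), whose mean log2 ratio was 2.01 ± 0.54 in D1 lanes, 0.46 ± 2.22 in D2 lanes, −0.32 ± 1.11 in D2.5 lanes, −1.17 ± 0.86 in D3 lanes, −1.19 ± 0.61 in D4 lanes and −1.06 ± 1.01 in D5 lanes (SD, n = 3 each). Without D2 replicate 3 that pair passed (adjusted p = 0.0494, permutation test). WNT-5a over FAT3 had a mean of −2.19 ± 0.78 at D1 and 1.05 ± 1.28 at D3 (adjusted p = 0.327, permutation test), and the other pairs had adjusted p between 0.552 and 0.825. WNT-5a over neurofascin had stage means between −0.91 and −0.12. WNT-5a, neurofascin and FAT3 were below background in all D1 lanes, so their D1 ratios are ratios of counts at the floor.

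Across the 18 embryo lanes, WNT-5a and neurofascin ran close together, with a Spearman correlation of 0.917 of their log2(scaled count + 1). That of neurofascin with the leucine-rich repeat probe was 0.858, that of WNT-5a with the leucine-rich repeat probe 0.781, and those of FAT3 with the other members lay between 0.614 and 0.703. These lanes share their depth and factor, and most probes ran with the panel: the correlation with the mean of the other tested probes was 0.975 for neurofascin, 0.944 for WNT-5a, 0.833 for the leucine-rich repeat probe and 0.612 for FAT3.

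The target probes most like WNT-5a were comp274039 (0.957), the hydroxylysine kinase probe comp293109 (0.955) and comp293605 (0.942), beside a median of 0.901 over the 42 other target probes. Those most like neurofascin were the cordon-bleu probe comp266794 (0.986), comp293109 (0.975) and comp293073_4 (0.971), beside a median of 0.902. Those most like the leucine-rich repeat probe were comp3124724 (0.893), comp293931 (0.880) and comp293924 (0.878), beside a median of 0.804. Those most like FAT3 were comp286889 (0.759), comp274039 (0.754) and comp284969 (0.738), beside a median of 0.615. Probes given by identifier alone carry no annotation in the file. The unannotated comp293325_41 shares the stem of its identifier with neurofascin. It correlated with neurofascin at 0.948, rank 12 of 42, and what the stem stands for is not given in the file.

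No other annotation of the panel held a WNT pathway term searched for, such as frizzled, ROR, dishevelled, catenin, axin or TCF. Targets of WNT signalling were not searched for. The adhesion and neurite outgrowth list held 5 tested probes, FAT3, neurofascin, the leucine-rich repeat probe and 2 cordon-bleu probes. Cordon-bleu is known in mammals as an actin nucleator of neurons, while the file also calls these probes apoptosis inhibitors. For D3 vs D1, 3 of the 5 rose and 0 fell, where 76.3% of the tested probes rose and 2.63% fell, with a median log2 fold change of 2.97 beside 4.36 over all tested probes. Besides neurofascin and the leucine-rich repeat probe, the cordon-bleu probe comp266794 rose (5.63, SE 1.59, edgeR adjusted p = 0.0015). The other cordon-bleu probe, comp287546, did not pass (2.06, SE 1.21, edgeR adjusted p = 0.106). For D5 vs D1, 2 of the 5 rose, where 63.2% of the tested probes did, with a median of 2.03 beside 3.50.

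Germ-line probes moved in these lanes too. Of the 6 germ-line marker probes (3 of SYCP1, and HFM1, Piwi-1 and Piwi-2), 5 were above background in all testes lanes. The summed raw count of all 6 there was 12061 to 12671. Most of it came from HFM1 (5815 to 6015) and the SYCP1 probe comp292635 (4853 to 5231). The SYCP1 probe comp292635_9 held 174 to 198, and Piwi-2, not above background there, 98 to 116. This raw sum is not on the scale of the embryo sums. In embryos the summed scaled count lay between 186 and 530 at D1, 70.8 and 361 at D3, and 61.3 and 209 at D5. HFM1, a helicase of meiotic crossing over, had 0.824 to 2.14 scaled counts at D1, 8.85 to 86.7 at D3 and 2.24 to 33.4 at D5, and was below background in every D1 lane. Piwi-1 and Piwi-2 ran the other way, with 32.1 to 58.7 and 47.0 to 74.7 scaled counts at D1 and 6.24 to 11.3 and 5.06 to 19.1 at D3. Neither was above background in any D3 lane, nor was Piwi-1 in D1 replicate 2. At D5 Piwi-1 had 23.4 to 29.6 and Piwi-2 13.4 to 22.3. For D3 vs D1 the edgeR log2 fold change of the SYCP1 probe comp292635 was 0.77 (adjusted p = 0.553). That of comp292635_9 was −2.28 (edgeR adjusted p = 0.0338). Without the SYCP1 probe comp292635_9, which held 44.8 to 352 at D1, the sum lay between 114 and 177 at D1, 42.3 and 277 at D3, and 48.6 and 150 at D5. Their part in the courses of the 4 transcripts was not tested.

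All 4 transcripts were far above their embryo levels in adult testes. Testes and embryos were set on 1 scale by HCFC-1, the reference probe above background in all 21 lanes. In testes HCFC-1 held 167 to 177 raw counts against a background of 127 to 136. Every testes level and fold on this scale thus rests on a reference near the floor in testes. Counts of the 3 testes lanes varied within sampling noise (chi-square per degree of freedom 0.890 to 1.28) and stand for 1 sample, so no test was made. The level in testes was instead required to reach 4 times the highest stage mean of the embryos. All 4 did so, where 88.4% of the 43 target probes did, and each of the 4 was above background in all 3 testes lanes.

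Neurofascin had 7517, 7541 and 7043 raw counts in the testes lanes, against 1 to 177 in the embryo lanes. Its testes level of 3190 ± 152 on the HCFC-1 scale (technical SD) was 21.6-fold above the D3 mean of 147, rank 14 among the 43 targets, whose median fold was 16.4. The leucine-rich repeat probe had 3458, 3444 and 3238 raw counts in testes, against 1 to 139 in embryos. Its level of 1464 ± 71.2 was 13.9-fold above the D3 mean of 105, rank 25. FAT3 had 1613, 1610 and 1522 raw counts in testes, against 4 to 49 in embryos, and its level of 685 ± 30.9 was 13.5-fold above the D3 mean of 50.7, rank 28. WNT-5a had 3355, 3157 and 3169 raw counts in testes, against 1 to 180 in embryos. Its level of 1398 ± 87.0 was 9.55-fold above the D3 mean of 146, rank 35, the lowest fold of the 4. Without D3 replicate 3 the highest stage mean was that of D4 for each, and the fold over it was 37.3 for neurofascin, 28.3 for the leucine-rich repeat probe, 22.1 for FAT3 and 17.6 for WNT-5a.

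No testes lane overlapped an embryo lane for any of the 4. The share of all target probes for which this held was not counted. The 4-fold rule, which 88.4% of the 43 passed, compares means and is a different measure. The separation is therefore not read as particular to the 4. On the HCFC-1 scale the lowest testes lane stood above the highest embryo lane, D3 replicate 3, by 3.67-fold for WNT-5a, 5.01-fold for the leucine-rich repeat probe, 6.68-fold for FAT3 and 8.56-fold for neurofascin. The size of the fold depends on the reference. It was 24.6 for WNT-5a and 56.8 for neurofascin with positive controls only, and 1310 and 2827 with EF1A_A alone, which held 12 to 22 raw counts in testes and was not above background there.

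As a share of all target counts of a lane, neurofascin made 1.59% ± 0.036 in testes (technical SD, 3 lanes), against 1.16% ± 0.26 at D3 (SD, n = 3). WNT-5a made 0.698% ± 0.013 in testes, against 1.05% ± 0.13 at D3, with lanes of 0.906%, 1.07% and 1.17% there. FAT3 made 0.342% ± 0.0057 in testes, against 0.616% ± 0.53 at D3, and the leucine-rich repeat probe 0.731% ± 0.014, against 0.608% ± 0.25. The testes share lay below all 3 D3 lanes for WNT-5a and above all 3 for neurofascin, and within the range of the D3 lanes for FAT3 and the leucine-rich repeat probe. How many of the other target probes separated likewise was not counted. In D3 replicate 1 the 95% Wilson interval was 0.541% to 1.52% for WNT-5a and 0.942% to 2.15% for neurofascin. It thus covered the testes share of each, whereas those of replicates 2 and 3 did not. With 1 testes sample these differences have no replicate check.

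**Figure D4:**
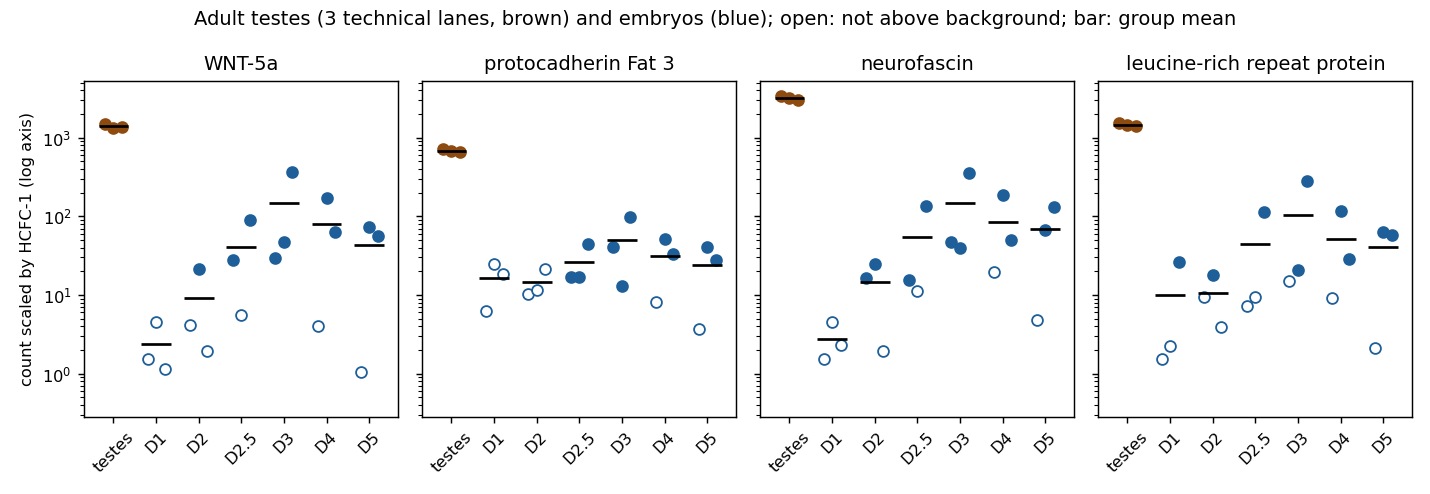
Counts scaled by HCFC-1 (log axis) of the 4 probes in the 3 technical testes lanes (brown, left) and in the embryo lanes by stage (blue), with open symbols for lanes not above background and bars for group means. Testes means were 1398 for WNT-5a, 685 for FAT3, 3190 for neurofascin and 1464 for the leucine-rich repeat probe, above every embryo lane in each panel.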

How the data were processed

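The authors deposited raw counts, whole numbers per probe and lane with none under 1, for 63 probes in 21 lanes, per the file headers. Software is not given in the sources used here. Normalized signal values that the authors deposited beside them served only as an alternative. The 4 probes, the gene lists and the tests were chosen with earlier results of these data known. Besides the 4 probes, the text names the reference probes, the members of the adhesion and germ-line lists and, per member, the 3 target probes with the highest Spearman correlation with it, and it names comp293325_41, chosen after its values were seen.

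Lane factors of the embryos were the geometric mean of EF1A_A and HCFC-1 (PMZ_0004518), with a mean factor of 1, and HCFC-1 alone set those of all 21 lanes together. A probe was tested if above the mean + 2 SD of the 8 negative controls in at least 3 of 18 embryo lanes. The 18 embryo lanes were fitted in edgeR 4.0.16 (R 4.3.3), by the robust quasi-likelihood method with stage as factor, two-sided, with SE taken as the log2 fold change over the square root of F. limma 3.58.1 on log2(scaled count + 1) and DESeq2 1.42.0 served as alternatives, and Python 3.11.15 with scipy 1.17.1 for the permutation tests. Both tests were run on simulated data with known answers. For D3 vs D1 and D5 vs D1 a member counts as called where it rose, a direction set after results were seen, and in steps where it changed either way. In the folds given as lower bounds, a member below background in every D1 lane enters at the D1 mean background. The edgeR log2 fold changes use the counts as they are, without this floor.

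Whether lanes of 1 replicate number form pairs was judged from the correlation of their deviations from the stage means over the 38 tested probes, which had to exceed 0.1 for each number. Among the stages of the first run, only D2.5 and D3 met this (0.173 to 0.794). The pairing is thus read from the values, not from the labels. D4 and D5, with too few numbered lanes, were not judged. Intervals cover counting error only.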

Additional observations from a re-analysis of the deposited data

How the results depend on the processing

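Over all alternatives, 502 of the values of single probes kept their direction and side of the threshold, 53 lost the threshold, 14 gained it and 34 changed sign, and 145 of the counts stayed within 1.5 times, with 32 outside. Of the 4 probes, 2 passed over the 6 stages, and 1 did with TMM, DESeq2's size factors, limma on the deposited values, the replicate block on numbered lanes, or without the 4 lanes of highest panel level (added after seeing the data). With TMM and DESeq2's size factors that 1 was FAT3 (edgeR adjusted p = 0.0274 and 0.0441), which had not passed before. None did with the negative control mean subtracted, with limma at a pseudocount of 1 or 10, or with limma on lanes centred on the panel, and leaving out each lane gave 0 to 3. For D5 vs D1 the count of 2 became 1 with limma at a pseudocount of 1 or on the deposited values. It was 0 with TMM, DESeq2's size factors, limma at a pseudocount of 10, numbered lanes only, the replicate block on them, or centred lanes, and leaving out each lane gave 0 to 2. For D3 vs D1 the count of 3 became 0 with TMM or DESeq2's size factors and 1 with centred lanes, and leaving out each lane gave 2 to 3. In successive steps the count of 0 became 1 with DESeq2's size factors, which made the leucine-rich repeat probe (comp292779) lower at D2 than at D1 (edgeR adjusted p = 0.0495). With the replicate block on D2.5 and D3 it was 4, and under EF1A_A alone also 4, and under HCFC-1 alone 3. These blocked fits called 35, 35 and 33 of the 38 tested probes higher. The block on numbered lanes ended the call of neurofascin over the 6 stages (edgeR adjusted p = 0.0867, against 0.0117 in the same lanes without it). The ratio tests gave 0 to 1 when each lane was left out, the 1 without D2 replicate 3. All 4 passed the 4-fold rule for testes under each alternative and without D3 replicate 3 (added after seeing the data), with folds under the other scalings and values of 10.0 to 1310 for WNT-5a, 16.1 to 1398 for FAT3, 23.0 to 2827 for neurofascin and 15.1 to 2029 for the leucine-rich repeat probe.

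The sign of a log2 change turned mostly for FAT3 and the leucine-rich repeat probe. With TMM and DESeq2's size factors FAT3 had −3.31 and −3.06 for D5 vs D1, −2.87 and −2.81 for D3 vs D1, and −0.81 and −0.63 for D3 vs D2.5. The leucine-rich repeat probe had −2.47 and −2.28, −2.30 and −2.27, and −0.40 and −0.23 in those comparisons. WNT-5a had −0.0099 for D5 vs D1 with TMM. With the sum of the target probes FAT3 had −1.43, −0.65 and −0.012 for D5 vs D1, D3 vs D1 and D3 vs D2.5. With centred lanes it had −2.29, −2.12 and −0.54, and the leucine-rich repeat probe −0.67, −0.59 and −0.15. With numbered lanes only D5 vs D1 was −0.29 for WNT-5a, −1.36 for FAT3 and −1.35 for the leucine-rich repeat probe, and with the replicate block on them −0.97 for FAT3. Leaving out each lane gave −0.057 (without D5 lane a) to 1.08 for FAT3 in D5 vs D1, and −0.94 (without D3 replicate 3) to 3.46 for the leucine-rich repeat probe in D3 vs D2.5. With the replicate block on D2.5 and D3, TMM gave −0.79 for FAT3, −0.024 for neurofascin and −0.45 for the leucine-rich repeat probe. DESeq2's size factors gave −0.60 and −0.25 for FAT3 and the leucine-rich repeat probe, and the sum −0.18 for FAT3. TMM, DESeq2's size factors and centring take out a change shared by the panel by construction. The sum of the target probes left a median log2 fold change of 2.12 for D3 vs D1 and 1.70 for D5 vs D1. The cause of the sign changes under the sum and the remaining settings was not tested. At D1 the counts of 1 to 2 of WNT-5a and neurofascin limit every fold from that stage.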

Other observations

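The unannotated comp293325_41, whose identifier shares its stem with neurofascin, averaged 1.39 ± 0.68 scaled counts in D1 lanes, 12.7 ± 10.1 in D2 lanes, 37.2 ± 39.96 in D2.5 lanes, 103.9 ± 137 in D3 lanes, 58.3 ± 55.6 in D4 lanes and 49.03 ± 39.6 in D5 lanes (SD, n = 3 each). None of its D1 lanes was above background, all 3 D2.5 lanes were, and 2 of 3 were at each other stage. It held 3384 to 3506 raw counts in the testes lanes.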
